A study of Mus musculus with 7 samples.

Results

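Expression of 34 genes of myelin and of mature oligodendrocytes was followed in bulk RNA-seq of the mouse medial amygdala, a nucleus of the limbic system involved in social and chemosensory behaviour. The genes were taken by name from a list of oligodendrocyte and myelin genes, with no threshold on a measured value. Earlier results of these data were known when the list was chosen. All 34 were found in the deposited table among 49164 genes with counts, and all 34 passed the filter on low counts. The table holds 7 libraries, each from 1 mouse, 3 females and 4 males, all sacrificed at 2 months. The mice were Trap-Ai9 animals (written TRAP2-Ai9 in the text on the series' design). In these mice tamoxifen permits a Fos-driven recombinase to switch on a red reporter for good in cells that were active at that time. Per the sample labels, females were given tamoxifen at 6 weeks and males at postnatal day 24, whereas the design text states day 24 without setting females apart. Sex therefore cannot be told apart from age at tamoxifen. Slices of 300 µm were dissected under fluorescence for an area the submitters call DIMPLE, which the labels do not spell out, and the labels give the share of each piece that it filled. That share was 25, 20 and 20% in female replicates 1 to 3, and 40, 18, 32 and 29% in male replicates 1 to 4.

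Oligodendrocytes wrap axons in myelin, a stack of tightly apposed membrane that speeds conduction. Compact myelin is held together by a small set of very abundant proteins and is rich in galactolipids. Cells of the lineage pass from dividing precursors through a short newly formed stage to mature myelinating cells, and each stage has its own marker genes. Grey nuclei such as the medial amygdala hold fewer myelinated fibres than the tracts that border them. In bulk tissue, fewer oligodendrocytes and less RNA per oligodendrocyte cannot be told apart.

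The libraries held 29049604 to 46494588 counts. Mitochondrial transcripts made up 2.24 to 2.88% of counts in 6 libraries and 5.74% in male replicate 1. The medial amygdala genes Lhx6, a transcription factor gene, and Esr1, the oestrogen receptor gene, were present in every library, at 56.9 to 203 and 42.2 to 110.2 counts scaled to a common library size (CPM). The summed level of 5 genes of this nucleus was 231 to 369 CPM in females and 139.7 to 269.5 CPM in males. Each of the 5 was lower in males, although 0 had an adjusted p under 0.05 by edgeR. Their log2 fold changes, male over female, had a median of -0.59. The male minus female difference in their mean log2 CPM was -0.63. It stayed at -0.57 without female replicate 1 and male replicate 3. What part this difference in tissue has in the myelin gene levels was not tested. Male replicate 3 stood apart by its choroid plexus genes. The summed level of 6 choroid plexus and ependymal genes was 14549 CPM there, against 37.9 to 325 CPM in the other 6 libraries. Every one of the 6 genes was highest in male replicate 3, against 16.8% of all genes tested. Ttr, the transthyretin gene of that epithelium, which was chosen after its values were seen, was at 13618 CPM there and at 8.56 to 249 CPM elsewhere. The median over members is therefore also given without this library. For part of the single genes, a value is given without it and female replicate 1 together.

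The myelin genes moved together from library to library. Their summed level was 1749, 3483 and 3133 CPM in female replicates 1 to 3, and 2959, 3453, 9544 and 4055 CPM in male replicates 1 to 4. Female replicate 1 was the lowest library and male replicate 3 the highest, while the other 5 lay between 2959 and 4055 CPM. Mbp alone gave 4742 CPM of the sum in male replicate 3. As a mean of log2 CPM over members, the 5 libraries in between spanned 0.50. The median member spanned 1.70-fold over them, against 1.90-fold for the median of all genes. Over these 7 libraries the level of a member followed the mean of the other members with a median Pearson correlation of 0.93. The correlation was above 0.8 for 29 of the 34 members and below 0 for 2. This describes 7 libraries whose depth and tissue composition the genes share, and without female replicate 1 and male replicate 3 the median over 5 libraries was 0.64. Male replicate 3 was the highest library for 31 of 34 members, against 16.8% of all 20420 genes tested. Female replicate 1 was the lowest for 25 of 34, against 11.2% of all genes, and both held for 25 members, against 4.8% of all genes. These positions were picked out after the values were seen and carry no test. Relative to the mean of the 5 libraries in between, the median member was 2.14-fold in male replicate 3, with a range from 0.641 for St18 to 4.00 for Anln. In female replicate 1 it was 0.610-fold, with a range from 0.329 for Mobp to 1.16 for St18.

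**Figure D1:**
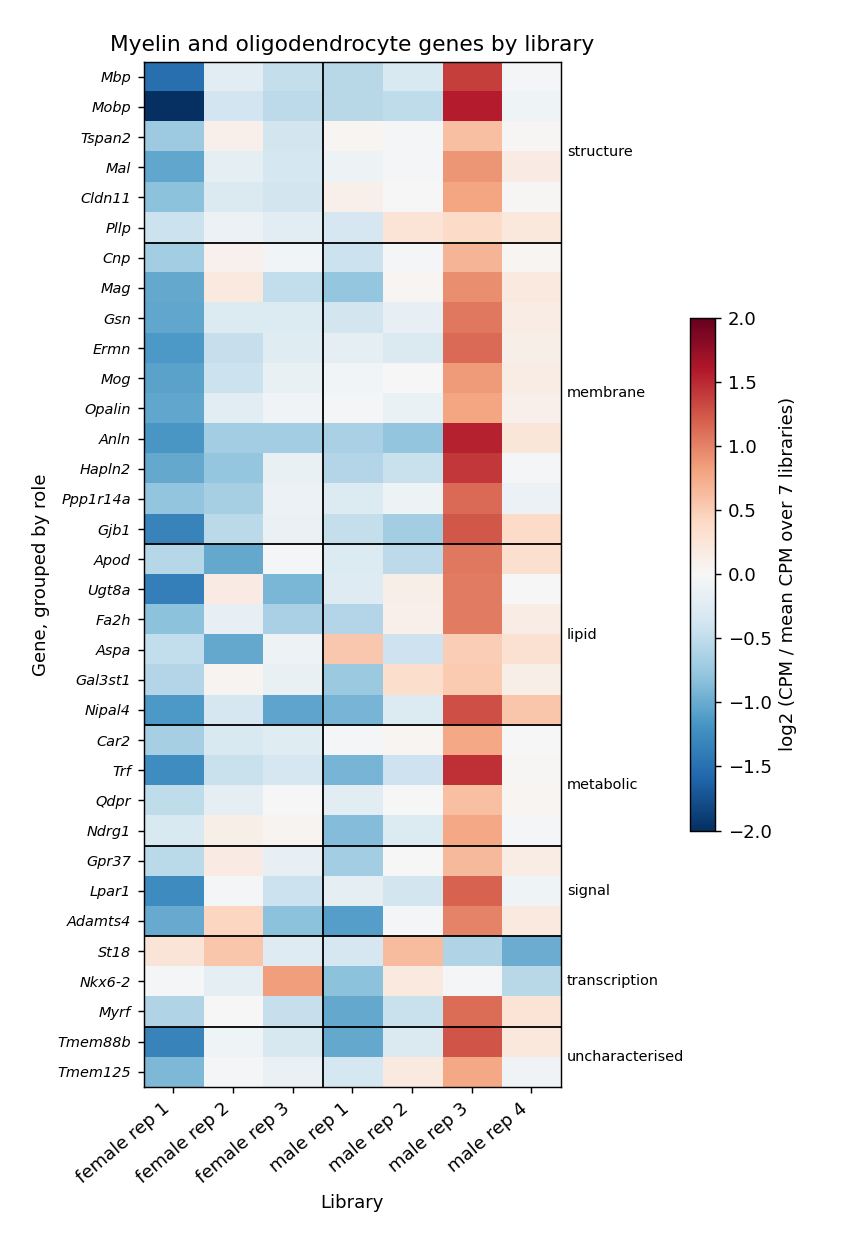
Level of each of the 34 genes (vertical axis, grouped by role) in each of the 7 libraries (horizontal axis), as log2 of CPM over the gene's mean CPM of the 7 libraries. The column of male replicate 3 is the highest for 31 genes and that of female replicate 1 the lowest for 25, while St18 and Nkx6-2 among the transcription factor genes follow neither.

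Structural genes of compact myelin included the member with the highest level per exon length. Mbp encodes myelin basic protein, which zips the inner faces of the membrane together (ENSMUSG00000041607, chromosome 18, 82493271 to 82603762, GRCm39). It was at 638, 1552 and 1305 CPM in female replicates 1 to 3 and at 1243, 1483, 4742 and 1792 CPM in male replicates 1 to 4. Male replicate 3 was far above every other library, male replicate 4 came next, and male replicates 1 and 2 lay within the female range. Females had a mean of 1165 ± 473 CPM (SD, n = 3), and males one of 2315 ± 1634 CPM (SD, n = 4). The log2 fold change, male over female, was 0.99 ± 0.48 (SE), and it was 0.06 without female replicate 1 and male replicate 3. Scaled by exon length, Mbp led the members at 215 CPM per kilobase, ahead of Car2 at 115, Mobp at 83.0 and Cnp at 75.4 CPM per kilobase. The lowest was Nipal4 at 0.614 CPM per kilobase.

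Mobp encodes a small basic protein of the myelin membrane (ENSMUSG00000032517, chromosome 9, 119978773 to 120010550, GRCm39) and varied most widely. It was at 142, 438 and 395 CPM in females and at 388, 399, 1683 and 533 CPM in males, in replicate order. The 5 libraries other than female replicate 1 and male replicate 3 spanned 1.37-fold, whereas those 2 lay far below and far above. The log2 fold change, male over female, was 1.21 ± 0.57 (SE), and it was 0.06 without both. The promoter of Mobp is shown because this gene had the widest swing, and so that the motif bound by Sox-family factors such as Sox10 can be seen. It is the RefSeq window from 250 bases before to 50 bases after the start, chr9:120149492-120149791, plus strand, GRCm38.p6, with each match to ACAAAG or ACAATG, on either strand, in capitals.

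Mobp promoter: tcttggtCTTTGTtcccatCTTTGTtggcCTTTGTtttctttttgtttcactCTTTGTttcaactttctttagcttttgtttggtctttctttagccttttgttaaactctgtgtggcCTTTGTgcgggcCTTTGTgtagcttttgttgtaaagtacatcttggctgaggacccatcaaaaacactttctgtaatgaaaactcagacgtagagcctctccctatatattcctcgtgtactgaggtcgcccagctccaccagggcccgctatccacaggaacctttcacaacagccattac

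This window held 6 matches, all to ACAAAG read from the opposite strand. Of 32851 mouse promoter windows of the same length, 28.6% held at least 1 such match and 1 window, that of Mobp, held as many as 6. Of the 34 members, 26 had at least 1 RefSeq window, 38 windows in all, and 16 of these 38 (42.1%) held the motif. Windows of 1 gene can overlap and share a match, so they are not separate observations. A match of letters is a description and no measured binding.

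Cldn11, the claudin of the seals between myelin layers (ENSMUSG00000037625, chromosome 3, 31204069 to 31218473, GRCm39), had the lowest p among members. It was at 13.5, 19.6 and 18.6 CPM in females and at 25.7, 24.1, 41.4 and 24.2 CPM in males. Every male library was above every female library, and the same held for Mog, Car2 and Mal, thus for 4 of 34 members against 2.54% of all genes. All males were below all females for 0 members, against 2.78% of all genes. The log2 fold change of Cldn11, male over female, was 0.74 ± 0.24 (SE), with an unadjusted p of 0.0124 and a Benjamini-Hochberg adjusted p of 0.822 by edgeR's quasi-likelihood test. It was 0.35 without female replicate 1 and male replicate 3. Among the other structural members, Mal and Pllp, which encode proteolipids of the membrane, and the tetraspanin gene Tspan2, the log2 fold changes were 0.77, 0.41 and 0.48.

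Genes of non-compact myelin, of adhesion and of the cell surface shared their highest and lowest libraries with the structural genes, while the order in between differed from gene to gene. Cnp, which encodes a phosphodiesterase that keeps cytoplasmic channels open within myelin, was at 169.7, 292 and 264 CPM in females and at 204, 271, 439 and 280.4 CPM in males. Only male replicate 3 was above the female range, and the log2 fold change, male over female, was 0.30 ± 0.28 (SE). Cnp overlaps Dnajc7 on the opposite strand, which held 32973 counts against 77322 for Cnp, so with the strand setting not given its reads are assigned with some uncertainty.

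Mag, an adhesion protein gene of the membrane next to the axon, was at 29.8, 69.4 and 42.9 CPM in females and at 35.3, 62.3, 115 and 69.1 CPM in males. The groups overlapped, with male replicate 1 below 2 of the 3 females, and the log2 fold change was 0.57 ± 0.39 (SE). Mog, which encodes a glycoprotein on the outermost myelin surface (ENSMUSG00000076439, chromosome 17, 37321635 to 37334290, GRCm39), was at 18.2, 28.3 and 34.3 CPM in females. In males it was at 36.7, 38.0, 68.6 and 42.4 CPM, so that the groups did not overlap, although female replicate 3 and male replicate 1 were close. The log2 fold change of Mog was 0.79 ± 0.28 (SE), with an unadjusted p of 0.0196 and an adjusted p of 0.869 by edgeR, and it was 0.30 without female replicate 1 and male replicate 3. The promoter of Mog is shown for the motif reported for Myrf, the regulator of myelin genes, with each match to CTGGCAC or CTGGTAC on either strand in capitals, in the RefSeq window chr17:37023349-37023648, minus strand, GRCm38.p6.

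Mog promoter: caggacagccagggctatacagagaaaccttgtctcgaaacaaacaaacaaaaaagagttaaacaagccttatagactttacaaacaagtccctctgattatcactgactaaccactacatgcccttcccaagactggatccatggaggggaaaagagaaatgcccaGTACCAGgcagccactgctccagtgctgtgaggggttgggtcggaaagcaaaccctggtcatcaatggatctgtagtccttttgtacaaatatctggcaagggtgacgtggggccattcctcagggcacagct

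This window held 1 match to the Myrf motif and 0 to the Sox motif. The Myrf motif was in 9 of the 38 member windows (23.7%) and in 7.1% of all 32851 windows. Among the 9 were overlapping windows of Mag, so windows are not separate observations.

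All 10 genes of this second group were highest in male replicate 3 and lowest in female replicate 1. Anln, which encodes a septin-binding scaffold protein of the myelin sheath, had the widest step up. It was at 5.80, 7.99 and 8.02 CPM in females and at 8.26, 7.51, 37.7 and 15.3 CPM in males, with a log2 fold change of 1.24 ± 0.52 (SE). The remaining members Gsn, Ermn, Opalin, Hapln2, Ppp1r14a and Gjb1 had mean levels from 6.83 CPM for Gjb1, a connexin gene, to 60.5 CPM for Gsn, the gelsolin gene. Their log2 fold changes, male over female, ran from 0.62 for Opalin to 0.93 for Hapln2.

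Genes of myelin lipids were less uniform. Apod, which encodes a lipid-binding lipocalin, was at 48.3, 35.6 and 70.6 CPM in females and at 59.3, 50.4, 150.2 and 89.8 CPM in males. The groups overlapped, and its lowest library was female replicate 2. Ugt8a, the enzyme gene for galactosylceramide, was at 13.4, 38.5 and 18.3 CPM in females and at 28.8, 37.5, 70.8 and 34.3 CPM in males, where male replicate 3 was highest and female replicate 2 was above 3 of the 4 males. The log2 fold changes were 0.76 ± 0.38 (SE) for Apod and 0.87 ± 0.40 (SE) for Ugt8a. Aspa encodes aspartoacylase, which frees acetate from N-acetylaspartate for lipid synthesis. It was at 13.3, 9.25 and 17.5 CPM in females and at 27.2, 14.0, 26.5 and 23.2 CPM in males. Its highest library was male replicate 1, and it followed the other members loosely, with a correlation of 0.43 over 7 libraries. The log2 fold change was 0.76 ± 0.29 (SE) and stayed at 0.67 without female replicate 1 and male replicate 3, with an unadjusted p of 0.0235 over all libraries and an adjusted p of 0.888 by edgeR. Fa2h, Gal3st1 and Nipal4 had log2 fold changes of 0.82, 0.34 and 1.21.

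Among genes of metabolism and iron handling, the pair with the highest level differed in how far the groups overlapped. Car2, carbonic anhydrase 2, was at 176, 225 and 236 CPM in females and at 276, 289, 476 and 278 CPM in males. The groups did not overlap, 3 males lay within a narrow band, and male replicate 3 stood above them. The log2 fold change was 0.63 ± 0.23 (SE), with an unadjusted p of 0.0217 and an adjusted p of 0.879 by edgeR, and it was 0.27 without female replicate 1 and male replicate 3. Trf, the transferrin gene, was at 80.6, 140.2 and 150.4 CPM in females and at 99.5, 143, 525 and 194 CPM in males. Male replicate 1 was below 2 females and male replicate 3 was 3.61-fold the mean of the 5 libraries in between. Its log2 fold change was 0.96 ± 0.51 (SE) with all libraries and -0.01 without female replicate 1 and male replicate 3. Car2 and Trf are also known to be transcribed in choroid plexus epithelium, and the part of that tissue in their level in male replicate 3 was not tested. Qdpr and Ndrg1 had log2 fold changes of 0.35 and 0.06.

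Receptor and secreted signalling genes were at moderate levels. Gpr37, an orphan receptor gene that restrains differentiation in mice, was at 26.8, 43.6 and 34.8 CPM in females and at 24.1, 38.8, 61.0 and 42.9 CPM in males. Lpar1, a receptor gene for lysophosphatidic acid, was at 14.3, 33.4 and 25.2 CPM in females and at 30.0, 26.3, 76.8 and 31.9 CPM in males. Both genes overlapped between the groups apart from male replicate 3, and their log2 fold changes were 0.25 ± 0.29 (SE) and 0.77 ± 0.41 (SE). Adamts4, a secreted protease gene, had a log2 fold change of 0.51 ± 0.49 (SE), and its level is uncertain because the strand setting is not given and reads of opposite strands may be mixed. Among genes of less known function, the membrane protein gene Tmem88b was at 10.2, 24.2 and 20.6 CPM in females and at 12.7, 21.2, 61.6 and 29.7 CPM in males. Tmem125 was at 1.76, 3.19 and 2.99 CPM in females and at 2.58, 3.75, 5.602 and 3.15 CPM in males. Both were highest in male replicate 3 and lowest in female replicate 1, overlapped between the groups otherwise, and had log2 fold changes of 0.77 ± 0.49 (SE) and 0.52 ± 0.35 (SE).

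Of the 3 transcription factor genes, Myrf moved with the myelin genes and St18 and Nkx6-2 did not. Myrf was at 8.13, 12.3 and 8.91 CPM in females and at 6.07, 9.08, 26.8 and 14.8 CPM in males, highest in male replicate 3, and followed the other members with a correlation of 0.88 over 7 libraries. St18, which encodes a zinc finger factor, was at 36.2, 44.4 and 25.4 CPM in females and at 23.9, 46.9, 20.0 and 15.2 CPM in males, so that male replicate 3 was among its 2 lowest libraries. Its correlation with the other members was -0.48 over 7 libraries. Nkx6-2, a homeobox gene of the lineage, was at 12.8, 11.8 and 23.6 CPM in females and at 7.50, 15.2, 12.9 and 9.03 CPM in males. Its highest library was female replicate 3, and its correlation with the other members was -0.02. Males over females, the log2 fold change was -0.42 ± 0.36 (SE) for St18 and -0.52 ± 0.32 (SE) for Nkx6-2, with unadjusted p of 0.274 and 0.129 by edgeR. Nkx6-2 overlaps Inpp5a on the opposite strand, with 10272 counts against 3833. Its promoter is shown as that of a member that did not follow the others, in the RefSeq window chr7:139582748-139583047, minus strand, GRCm38.p6. It held 0 matches to either motif in these letters and so has no capitals.

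Nkx6-2 promoter: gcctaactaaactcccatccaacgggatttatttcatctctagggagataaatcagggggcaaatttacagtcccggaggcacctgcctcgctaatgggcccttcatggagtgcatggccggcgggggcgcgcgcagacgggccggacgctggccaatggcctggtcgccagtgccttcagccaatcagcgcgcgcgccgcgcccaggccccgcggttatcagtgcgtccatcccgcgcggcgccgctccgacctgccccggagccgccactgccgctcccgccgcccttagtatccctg

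The comparison of males with females asked whether the members differ between the groups. By the quasi-likelihood test of edgeR, 0 of 34 members passed an adjusted p of 0.05, against 5 of 20420 genes (0.0245%). DESeq2 also called 0 members, against 122 of 18937 genes with an adjusted p (0.644%), and limma-voom 0 members, against 6 of 20420 genes (0.0294%). In the authors' deposited DESeq2 results, members numbering 32 were higher in males. There 0 had an adjusted p below 0.1, a looser threshold than the 0.05 above, and 16 had an unadjusted p below 0.05. Shares over all genes were not taken from those results, so the counts of 32 and 16 there have no background to be weighed against. The direction was shared all the same: 32 of 34 members had a log2 fold change above 0, against 52.3% of all genes, and the median was 0.76 against 0.01 for all genes. At an unadjusted p under 0.05 by edgeR, 9 members were higher in males, against 2.68% of all genes, and 0 were higher in females. The members were chosen with earlier results of these data known, so these shares carry no test. As a mean of log2 CPM over members, females were at 4.60 ± 0.36 (SD, n = 3) and males at 5.16 ± 0.57 (SD, n = 4), a difference of 0.56.

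The size of this difference rested on 2 libraries. The median log2 fold change was 0.32 without male replicate 3, 0.53 without female replicate 1, and 0.10 without both, where 23 members were above 0 and 11 below. The difference in mean log2 CPM was then 0.08. These 2 libraries were picked for this after their values were seen, and leaving out the lowest female and the highest male lowers the difference by construction. By role, the difference in mean log2 CPM without both was 0.19 for the structural genes, 0.13 for the membrane genes and 0.35 for the lipid genes. It was -0.06 for the metabolic genes, -0.10 for the signalling genes and -0.42 for the transcription factor genes.

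**Figure D2:**
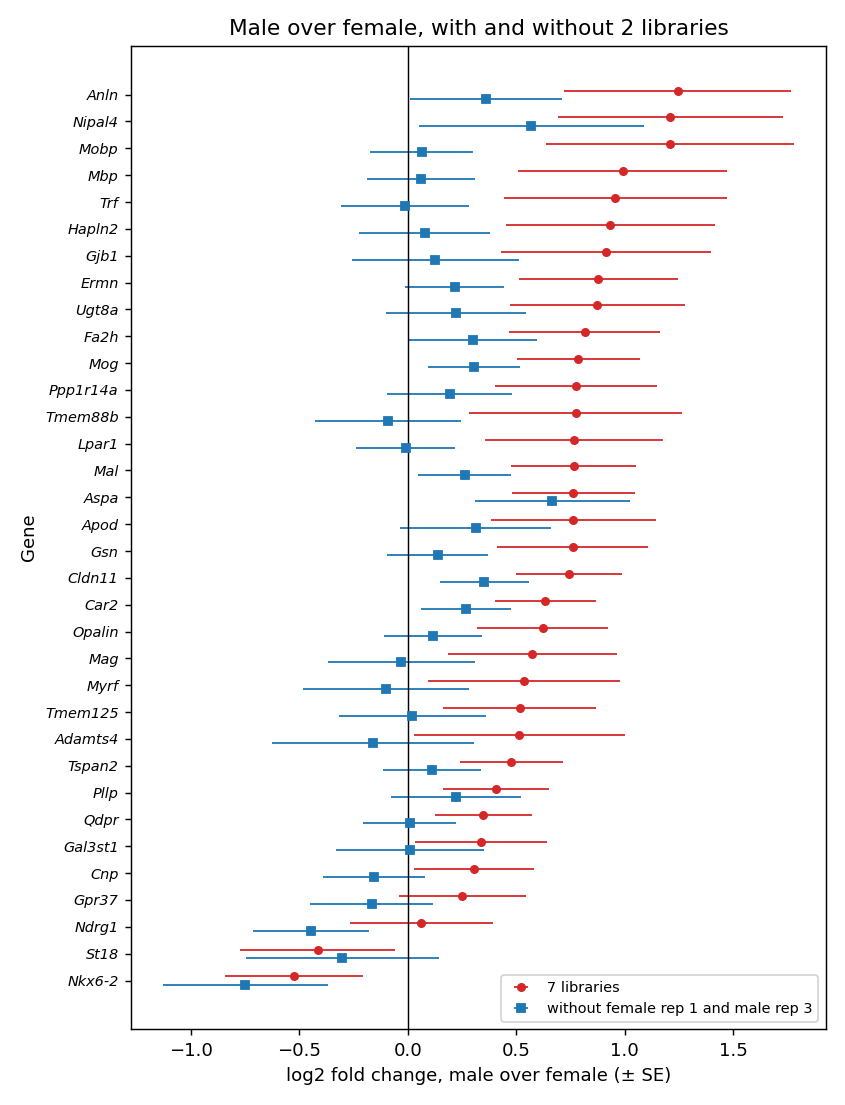
Log2 fold change of each gene, male over female, with its SE (horizontal axis), from all 7 libraries (circles) and without female replicate 1 and male replicate 3 (squares). With all libraries 32 of 34 genes lie above 0, and without the 2 libraries 23 do, closer to 0.

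The second comparison asked whether the members change with the share of DIMPLE in the piece, with sex in the model. No member passed: 0 of 34 had an adjusted p under 0.05 by edgeR or by DESeq2, against 0% of all genes. At an unadjusted p under 0.05 by edgeR there were 0 members, against 680 genes with a positive and 248 with a negative slope among 20420. The median slope was -0.03 log2 units per 10 percentage points, with 13 members above 0 and 21 below, against 51.6% of all genes above 0. Slopes ran from -0.45 for Nkx6-2 to 0.42 for Aspa, whose slope of 0.42 ± 0.21 (SE) had the lowest unadjusted p, 0.0724. For Mbp the slope was -0.02 with a 95% interval from -1.18 to 1.13. The median slope was -0.96 without male replicate 2, the library with the lowest share, 0.36 without male replicate 1, the library with the highest, and -0.23 without male replicate 3. Male replicate 1 was also the library with the fewest counts, 29049604, and the highest mitochondrial share, 5.74%.

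**Figure D3:**
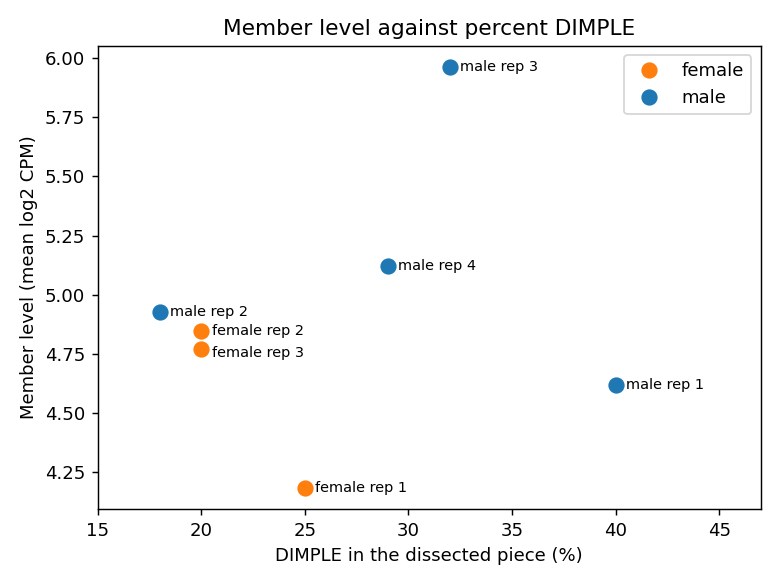
Mean log2 CPM over the 34 genes (vertical axis) against the percent of DIMPLE in the piece (horizontal axis), 1 point per library, coloured by sex. The library with the highest share, male replicate 1 at 40%, had a level of 4.62, below male replicate 2 at 18% with 4.93, and male replicate 3 stands alone at 5.96.

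The column names of the table set male replicates 1 and 2 (named mv) apart from male replicates 3 and 4 (named mb), with no explanation in the labels. The members were higher in the mb libraries: 32 of 34 had a log2 fold change above 0, against 50.2% of all genes, with a median of 0.85 against 0.00 for all genes. Both mb libraries were above both mv libraries for 23 of 34 members, against 18.1% of all genes. By edgeR 0 members and 0% of all 21427 genes tested passed the adjusted threshold. At an unadjusted p under 0.05, 15 members were higher in mb, against 3.77% of all genes, and 1, St18, was lower. The log2 fold changes, mb over mv, were 1.76 ± 0.40 (SE) for Anln, 1.46 ± 0.37 for Myrf, 1.57 ± 0.46 for Trf, 1.27 ± 0.49 for Mbp and -1.004 ± 0.36 for St18. Without male replicate 3 the median was 0.31, with 30 members above 0, so male replicate 4 alone was above the mv libraries by a smaller amount. DESeq2 called 1 member, Anln, against 71 of 19872 genes with an adjusted p (0.357%). With only the mv males, the median log2 fold change of males over females was 0.19, and with only the mb males it was 1.05.

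Other genes of the lineage were compared from lists of neighbouring stages. Of 30 further myelin-associated genes, 23 were higher in males, against 52.3% of all genes, with a median log2 fold change of 0.27. By edgeR 0 passed, and 4 were higher in males at an unadjusted p under 0.05, against 0.0245% and 2.68% of all genes. As with the members, many were highest in male replicate 3, 21 of the 30, against 16.8% of all genes. Female replicate 1 was the lowest library for 13 of the 30, against 11.2% of all genes. The stress protein gene Cryab was at 52.5, 66.0 and 75.3 CPM in females and at 75.3, 86.3, 184 and 83.2 CPM in males. Klk6, an oligodendrocyte protease gene, was at 6.34 CPM in male replicate 3 and at 0.279 to 1.33 CPM elsewhere.

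Precursor genes were highest in various libraries. Of 13 lineage and precursor genes, 12 were higher in males, against 52.3% of all genes, and the median log2 fold change was 0.24. By edgeR 0 passed, and 1 was higher in males at an unadjusted p under 0.05, against 0.0245% and 2.68% of all genes. Male replicate 3 was the highest library for 3 of these 13, against 16.8% of all genes. Pdgfra, the growth factor receptor gene of precursors, was at 39.7, 109.6 and 41.5 CPM in females and at 43.4, 72.2, 88.5 and 63.9 CPM in males, highest in female replicate 2. Its log2 fold change was 0.08 ± 0.37 (SE). Sox10 and Olig2, transcription factor genes of the whole lineage, had log2 fold changes of 0.38 ± 0.24 (SE) and 0.34 ± 0.25 (SE). Sox10 was at 28.3, 37.3 and 27.8 CPM in females and at 25.8, 45.0, 52.2 and 38.9 CPM in males, overlapping between the groups. C1ql1, a secreted protein gene of precursors, was at 19.1, 23.1 and 26.6 CPM in females and at 28.8, 35.1, 34.1 and 33.9 CPM in males, without overlap, and had an adjusted p of 0.835 by edgeR. The sialidase gene Neu4 had a log2 fold change of 0.44 ± 0.22 (SE). Every male was above every female for 1 of the 13 genes, C1ql1, against 2.54% of all genes.

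Of 11 genes of newly formed oligodendrocytes, 9 were higher in males, against 52.3% of all genes, with a median log2 fold change of 0.39. By edgeR 0 passed, and 3 were higher in males at an unadjusted p under 0.05, against 0.0245% and 2.68% of all genes. The highest library was male replicate 3 for 5 of the 11, against 16.8% of all genes. Enpp6, a choline phosphodiesterase gene of that stage, was at 4.54, 7.18 and 5.05 CPM in females and at 7.72, 9.76, 15.5 and 7.62 CPM in males, without overlap. The long noncoding RNA 9630013A20Rik was at 5.28, 8.36 and 7.51 CPM in females and at 18.3, 8.53, 12.1 and 10.3 CPM in males, highest in male replicate 1. The small GTPase gene Rras2 had a log2 fold change of 0.83 ± 0.32 (SE). Every male was above every female for 3 of the 11 genes, against 2.54% of all genes. As means of log2 CPM, the newly formed list was 0.43 higher in males than in females, and 0.27 higher without female replicate 1 and male replicate 3. The corresponding differences of the lineage and precursor list were 0.25 and 0.15.

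**Figure D4:**
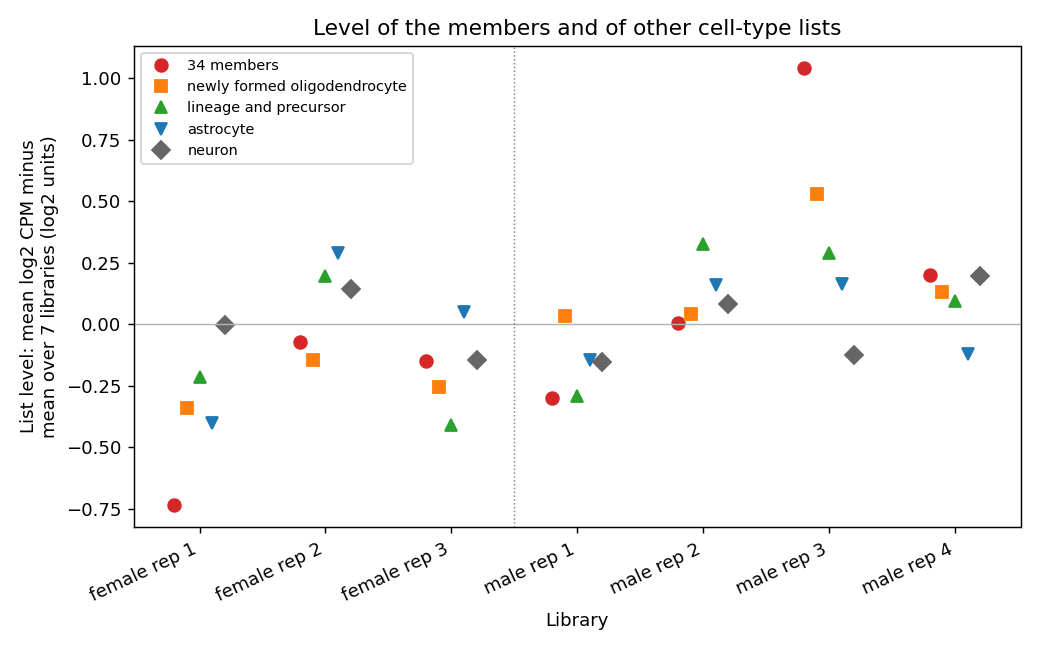
Level of the 34 members and of 4 other lists in each library (horizontal axis), as mean log2 CPM minus the mean of the 7 libraries (vertical axis, log2 units). The members range from -0.74 in female replicate 1 to 1.04 in male replicate 3, wider than the newly formed, precursor, astrocyte and neuron lists. Not shown are the further myelin-associated genes, which ran from -0.42 in female replicate 1 to 0.87 in male replicate 3. The choroid plexus list, also not shown, reached 4.96 in male replicate 3.

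Lists of lipid synthesis had medians near 0. The 18 cholesterol synthesis genes had a median log2 fold change of 0.03 and the 18 sphingolipid and fatty acid genes one of 0.01. By edgeR 0 passed in either list, against 0.0245% of all genes. The highest library was male replicate 3 for 2 of the cholesterol genes and 8 of the sphingolipid and fatty acid genes, against 16.8% of all genes. At an unadjusted p under 0.05, 0 and 1 were higher in males, against 2.68% of all genes. The exception was the fatty acid elongase gene Elovl7, at 2.81, 6.81 and 6.598 CPM in females and at 7.22, 8.08, 70.8 and 8.19 CPM in males. It was thus raised in male replicate 3 and lay close together in 5 of the other libraries.

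Markers of other cells were set beside the members. The summed level of 12 neuron genes was 4380 to 5855 CPM over all libraries, and their median log2 fold change was 0.00. The 11 astrocyte genes summed to 3946 CPM in female replicate 1 and to 4610 to 6075 CPM in the other libraries. Female replicate 1 was lowest for 8 of the 11, against 11.2% of all genes. The 11 microglia genes summed to 491 to 639 CPM. The 10 endothelial genes summed to 100.4 to 229 CPM in females and to 183 to 329 CPM in males. All 10 were higher in males, against 52.3% of all genes, and 6 were highest in male replicate 3, against 16.8% of all genes. By edgeR 0 passed, and 1 was higher in males at an unadjusted p under 0.05, against 0.0245% and 2.68% of all genes. The 6 fibroblast genes summed to 28.6 to 54.2 CPM. The 6 Schwann cell genes, which mark peripheral myelin, summed to 26.4 to 38.3 CPM in females and to 20.5 to 35.3 CPM in males. Most of this came from Drp2 at 17.7 to 36.0 CPM, and Egr2 was at 0.525 to 12.001 CPM, highest in male replicate 4, whereas Prx was at 0.144 to 0.761 CPM and Pmp2 at 0.0212 CPM or less. The choroid plexus list was second highest in female replicate 3 at 325 CPM, where the mean log2 CPM of the members was 4.77, against 4.85 in female replicate 2 with 49.5 CPM of that list. In male replicate 3, with 14549 CPM of that list, Mbp, Mobp and Mog were 3.21-fold, 3.91-fold and 1.91-fold the mean of the 5 libraries in between. The part of dissection, choroid plexus content and astrocyte content in the member levels was not tested.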

How the data were processed

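The authors deposited 1 table per gene, with raw counts per library, a normalized signal (per the file headers, counts divided by size factors), and their own log2 fold changes (female over male), standard errors and test statistics (a score per gene, per the file headers), p-values and adjusted p-values. The build GRCm39 and the tools TopHat2 2.2.1, cutadapt, DESeq2 1.26.0 and HTSeq 2.0.1 are named in the submitters' processing notes, without their roles. The strand setting and annotation release are not given in the sources used here.

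Genes were filtered with filterByExpr (at least 10 counts, total of 15), normalized with TMM factors and tested with edgeR 4.0.16 in R 4.3.3 (robust quasi-likelihood, Benjamini-Hochberg over all genes tested, threshold 0.05). Alternatives used DESeq2 1.42.0 and limma 3.58.1 (voom), other scalings and filters, and libraries left out. CPM are scaled by TMM. Levels as means of log2 CPM used a prior count of 2. Exon lengths came from GENCODE M21, by gene ID, and promoter windows from RefSeq, both on the older build GRCm38. The fit was tested on simulated data. P-values set a difference against the spread between these libraries, each from 1 mouse. That spread also holds differences between dissected pieces and, among males, between the mb and mv columns.

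Members and lists were chosen with earlier results of these data known. Named with a value per library were, in each role group, the 2 members of highest CPM and the 1 of lowest p. From the lists of oligodendrocyte stages and of sphingolipids, up to 3 genes of lowest p were named, and other lists are given by counts and summed levels, with Sox10, Olig2 and Pdgfra in any case. Results for part of these genes are not reported here. Anln, Myrf, Adamts4 and genes of other cell types were chosen after their values were seen.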

Additional observations from a re-analysis of the deposited data

Results flagged for a closer look

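Among the 4 males, 8 of 34 members had 1 library far from the others, by the gap to its nearest neighbour as a share of the range, set against the Dixon criterion for 4 values, a mark that chance gives about 1 group in 20. Of all 20420 genes tested, 8.29% carried it. In each of the 8 members the far library was male replicate 3, above the rest, which held for 2.83% of all genes. The share was 0.936 for Car2, 0.927 for Ppp1r14a, 0.915 for Tspan2, 0.903 for Cldn11, 0.888 for Mobp, 0.888 for Lpar1, 0.849 for Hapln2 and 0.843 for Mbp. Outside the members, the same library was far from the others for Elovl7 (0.985), Cryab (0.899) and Klk6 (0.854). The genes share their libraries, so these are not separate observations. The shares of the genes were taken on CPM. The level over members was set against the criterion only as mean log2 CPM, where its share was 0.626, under the critical value. With the scale changed, it cannot be compared with the shares of the genes.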

How the results depend on the processing

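The count of members called in the male over female test was 0 in every alternative run, and the median member log2 fold change stayed above 0 in all of them. It was 0.19 with only the mv males, 0.10 without female replicate 1 and male replicate 3 (added after seeing the data), and 0.32 to 0.86 with 1 library left out. The 5 genes called among all genes became 12 without the filter on low counts, 122 with DESeq2, 48 with only the mb males and 4 to 26 with 1 library left out. In their deviations from the group means, same-numbered libraries correlated at 0.307, 0.169 and 0.0318, and the other pairs at -0.465 to 0.303. With so few libraries, these values cannot decide whether replicate numbers pair the samples. With the replicate number as a block, 27 genes and 0 members were called, and the median member change was 0.69. With only the mv males, 8 members changed sign to below 0: Cnp (-0.0439), Trf (-0.0472), Gpr37 (-0.17), Tmem88b (-0.13), Myrf (-0.39), Gjb1 (-0.0128), Ndrg1 (-0.52) and Adamts4 (-0.17), as did Pdgfra (-0.16) outside the members. Without female replicate 1 and male replicate 3, a change of sign was seen in 9 members: Cnp (-0.16), Mag (-0.0294), Trf (-0.0126), Gpr37 (-0.17), Lpar1 (-0.0104), Tmem88b (-0.0916), Myrf (-0.10), Ndrg1 (-0.45) and Adamts4 (-0.16), as did Pdgfra (-0.35). With 1 library left out, Pdgfra ranged from -0.17 to 0.73 and Gpr37 from -0.000265 to 0.44, and Ndrg1 was at -0.32 without male replicate 3 and -0.0585 without female replicate 1. Ndrg1 was also below 0 with limma-voom (-0.0265) and with the replicate block (-0.0731).

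The median slope on percent DIMPLE was 0.26 with no sex term and -0.96 to 0.36 with 1 library left out. Without the filter on low counts, 15 genes were called for the slope. For mb over mv, the calls were 427 genes (1.07%) and 9 members without that filter, 71 genes and 1 member with DESeq2, and 0 to 162 genes and 0 to 1 members with 1 library left out. The median member change was 0.31 to 1.25 with 1 library left out, and 0.31 without female replicate 1 and male replicate 3. The cause of these shifts was not tested.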
